A study of Homo sapiens with 8 samples.

Results

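The genes described are 9 transcription factors that steer myeloid precursors toward the monocyte or the granulocyte fate, out of 61125 genes in the deposited tables: SPI1, IRF8, GFI1, KLF2, KLF4, EGR1, EGR2, RUNX1 and TFEC. They were taken by gene symbol. The C/EBP family was left out by the rule. For 8 of the 9 the symbol cell held that name alone. The cell of RUNX1 held a second symbol, LOC100506403, and its row was identified by the Ensembl gene ID. RNA was sequenced from U-937, a human leukaemia line of pro-monocytic type. The cells had received 1 of 4 treatments for 72 h. Vehicle was PBS with DMSO, LAA was 250 µM L-ascorbic acid (vitamin C), ATRA was 1 µM all-trans retinoic acid, and LAA+ATRA was both compounds at those doses. Each group had 2 libraries, 8 in all. Nothing in the labels says whether replicates came from separate cultures, so p-values measure the spread between these libraries, which may be technical. All groups are of 1 cell line, so the results describe that line alone.

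PU.1, the product of SPI1, is an ETS-family factor needed for both monocytes and granulocytes, and its dose is known to bias the choice between them. IRF8 partners with PU.1 and favours monocytes and dendritic cells, with KLF4 acting below it. GFI1 is a repressor that favours granulocytes, and EGR1 and EGR2 oppose it on the monocyte side. RUNX1 opens the myeloid programme in progenitors, TFEC is a macrophage-restricted member of the MiT/TFE family of lysosomal regulators, and KLF2 is linked to quiescence in leukocytes. ATRA acts on nuclear retinoic acid receptors and drives maturation of several myeloid leukaemia lines. Ascorbate is a cofactor of TET enzymes, which oxidise methylated DNA, and the study's title places its question there.

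Library totals ran from 18462552 to 24166770 estimated counts. The line's markers fitted an immature myeloid cell in part. The primary granule genes ELANE, AZU1, PRTN3 and CTSG were abundant, with 2.1e+03 CPM (counts scaled to library size) of ELANE in vehicle, while MPO stood at 0.435 CPM. Of the 14 monocyte and macrophage markers, 10 to 13 had at least 3 counts in a library, but CD14 had 18 counts and CD163 15 counts over all 8 libraries, and MRC1 had 2. Summed, these 14 markers held 640 to 950 CPM in the 4 libraries without ATRA and 1.62e+03 to 2.05e+03 CPM in the 4 with it. LYZ held the largest part of the sum without ATRA. Leaving LYZ out, the sums were 187 to 204 CPM and 925 to 1.14e+03 CPM. FCN1 went the other way, from 15.5 CPM in vehicle to 7.69 CPM with ATRA, as did VCAN, from 0.579 CPM to 0. Of the 13 granulocyte markers, 4 to 8 had at least 3 counts in a library. Their sum was 83.3 to 115 CPM without ATRA and 262 to 415 CPM with it, carried mainly by CSF3R, while CD177, PGLYRP1 and OLFM4 were at 0. MMP9 went against the sum, from 2.27 CPM in vehicle to 0.0647 CPM with ATRA and 0.517 CPM with LAA+ATRA. Among markers of other lineages, CD3D, CD3E, MS4A1, HBB, PF4 and GP9 were at 0. PAX5, a B-cell factor, was present at 11.2 CPM in vehicle. In bulk RNA, fewer cells of a type and less RNA per cell cannot be told apart.

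The 9 factors spanned a wide range of abundance. On the authors' length-scaled scale (FPKM, fragments per kilobase of gene, scaled to library size), SPI1 was highest in every library, followed by GFI1, IRF8, RUNX1 and TFEC, and this order of the first 5 was the same in all 8 libraries. In vehicle their mean FPKM levels were 139 for SPI1, 75.1 for GFI1, 62.8 for IRF8, 21.2 for RUNX1 and 3.68 for TFEC. No pair of neighbours among these 5 overlapped between libraries of the same group. KLF4 came next in vehicle at 1.95 FPKM. KLF2, EGR1 and EGR2 lay at 0.35, 0.298 and 0.237 FPKM there, and their order differed between the 2 vehicle libraries. With ATRA alone EGR1 moved above KLF4 in both libraries, at 2.19 and 2.14 FPKM against 1.53 and 0.89. In the LAA+ATRA group the order of these 2 genes differed between the replicates.

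**Figure D1:**
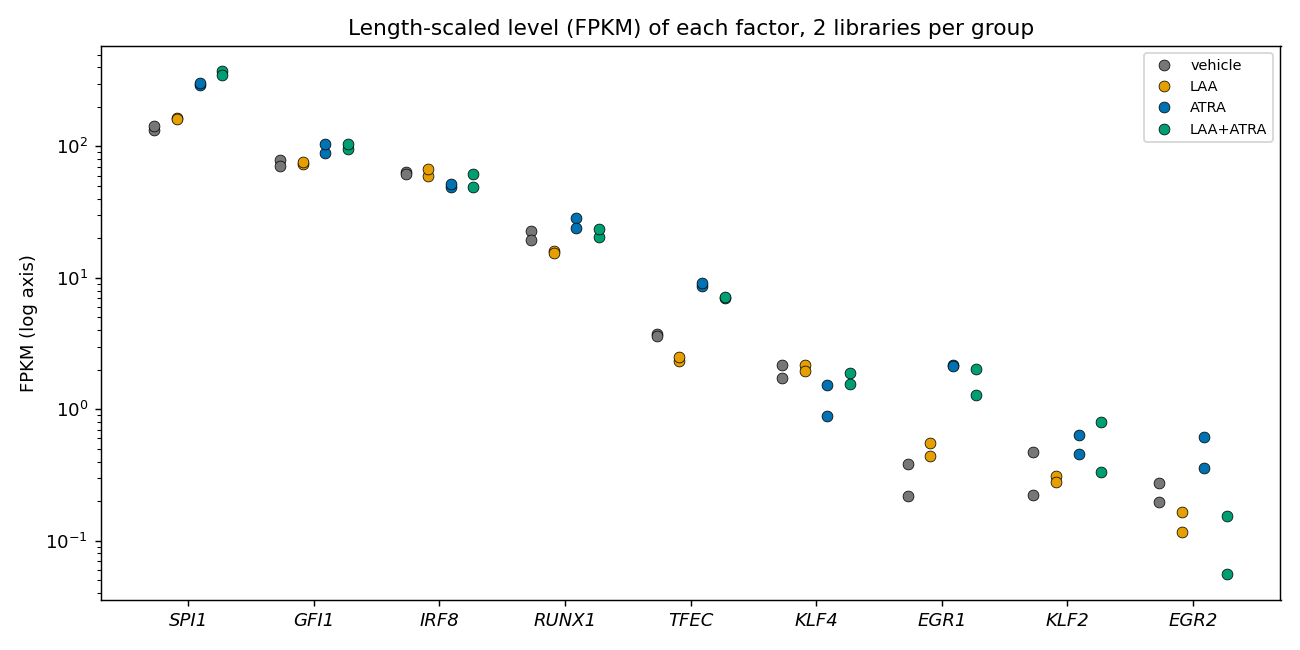
Level of each factor in FPKM on a log axis. Each point is 1 library, coloured by group, with 2 libraries per group. SPI1 lies between 134 and 374 in all libraries, and KLF2 and EGR2 stay below 1.

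ATRA against vehicle asks what the retinoid alone did. SPI1, EGR1, RUNX1 and TFEC rose and KLF4 fell, so 5 of the 9 factors were called at an adjusted p under 0.05 by edgeR's quasi-likelihood test. Among all 14995 genes tested, 42.9% were called in this comparison, 21.9% higher and 21% lower. The 9 had a median log2 fold change of 0.63, against -0.00 over all genes tested. This median counts EGR2, at log2 1.32, which entered the test through the ATRA group where it is highest. It is therefore not read as a shift of the set. IRF8, GFI1, KLF2 and EGR2 did not pass the threshold. In LAA+ATRA against LAA, SPI1, EGR1, RUNX1 and TFEC rose and the other 5 factors were not called, where 36.4% of all genes were called, 18.4% higher. LAA against vehicle called none of the 9, where 0.0267% of all genes were called, and its values are given below.

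**Figure D2:**
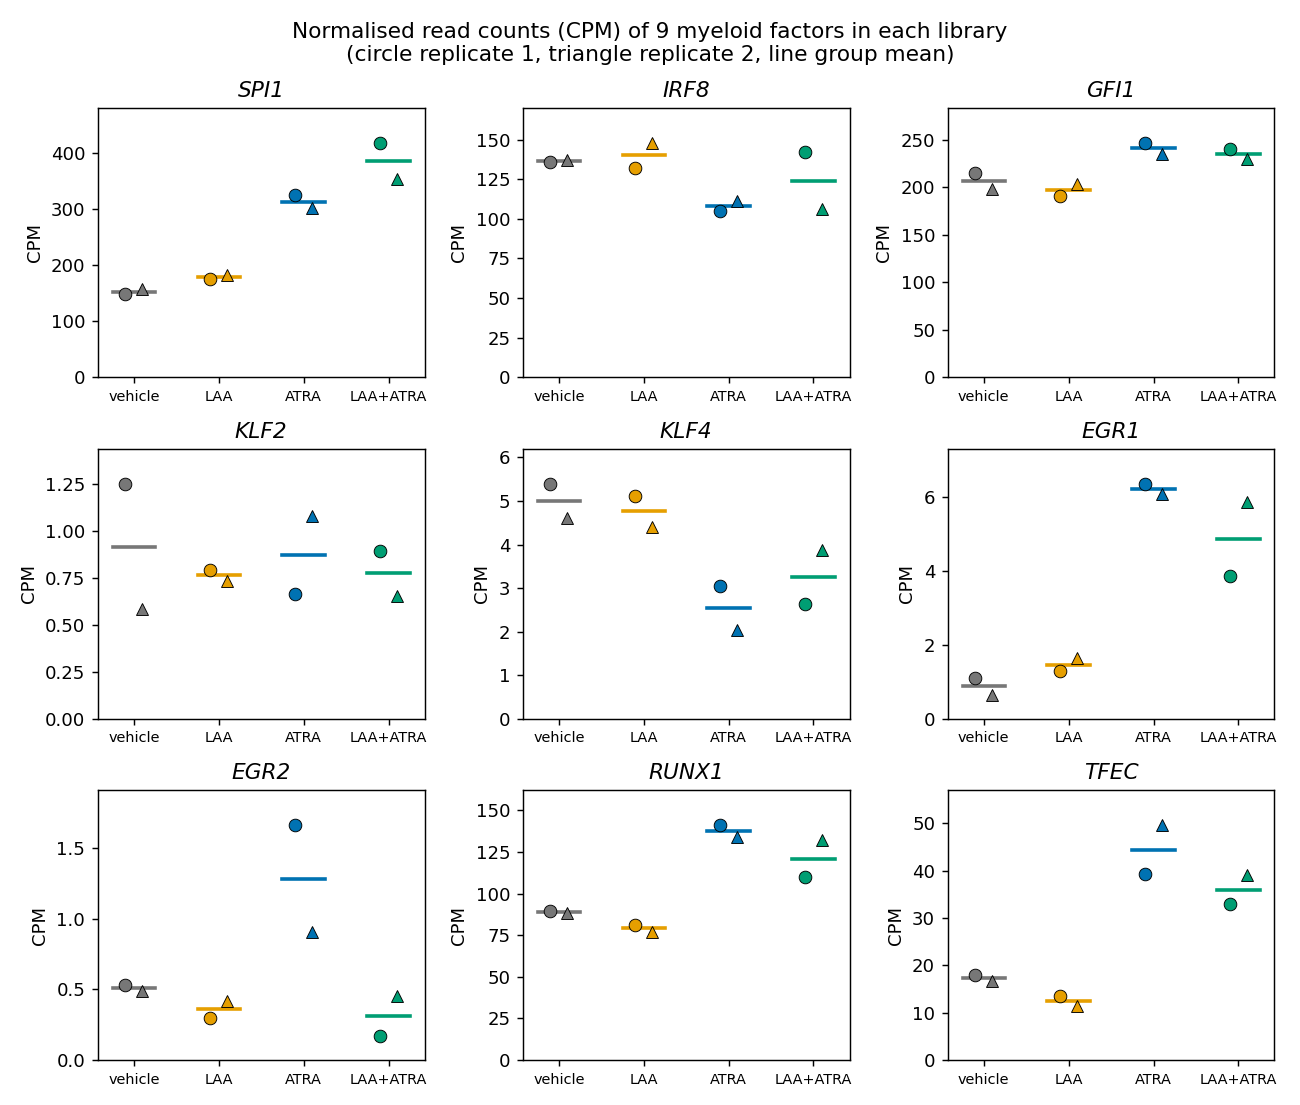
CPM of each factor in each library, with circles for replicate 1, triangles for replicate 2 and a line at the group mean. The libraries with ATRA lie above those without it for SPI1, GFI1, EGR1, RUNX1 and TFEC and below them for KLF4. How common such separation is among all genes was not counted.

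SPI1 (ENSG00000066336.12) lies on chromosome 11 at 47354860 to 47378576 on the minus strand of GRCh38. Its CPM were 149 and 157 in vehicle, 175 and 182 with LAA, 325 and 302 with ATRA and 419 and 354 with LAA+ATRA. All 4 libraries with ATRA stood above all 4 without it, and within each ATRA setting both LAA libraries stood above both without LAA. For this and the factors below, the share of all genes whose libraries separate in this way was not counted. ATRA raised SPI1 2.06-fold (log2 1.04 ± 0.11, SE, adjusted p = 9.68e-06). Against LAA alone, LAA+ATRA was 2.17-fold higher (adjusted p = 7.36e-06). The step with LAA was smaller and not called, at log2 0.23 ± 0.11 without ATRA (adjusted p = 0.273) and 0.30 ± 0.11 with it (adjusted p = 0.152).

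Most of the listed PU.1 targets rose under ATRA. The list was chosen with earlier results of these data known, so its count is no test of PU.1 activity. Of 17 tested genes on a list of 18 PU.1 targets, 15 rose and none fell, with a median log2 fold change of 1.81, where 21.9% of all genes were called higher. The other 2, LYZ (lysozyme) and BTK (a tyrosine kinase), were not called, at log2 0.26 ± 0.17 (adjusted p = 0.223) and -0.20 ± 0.11 (adjusted p = 0.165). CYBB, the catalytic subunit of the phagocyte NADPH oxidase, went from 3.57 ± 0.63 CPM (SD, n = 2) to 129 ± 7.6 CPM. ITGAM, the CD11b integrin chain, went from 10.8 ± 0.95 CPM to 138 ± 23 CPM. CD68, a lysosomal glycoprotein, and TYROBP, a signalling adaptor, rose 7.51-fold and 7.43-fold. With LAA+ATRA against vehicle 16 of the 17 rose and BTK fell, where 23.1% of all genes were called higher. Against ATRA alone LAA+ATRA left ITGB2, a leukocyte integrin chain, and TLR4, the endotoxin receptor, lower. Their log2 differences were -0.58 and -0.53 (adjusted p = 0.0491 and 0.0337), where 1.01% of all genes were called. None of the 17 was called with LAA alone, where 0.0267% of all genes were called. This list shares FCGR1A, CSF1R, CD68, LYZ, CTSS and ITGAM with the monocyte markers above and CSF3R with the granulocyte markers.

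IRF8 (ENSG00000140968.12; chromosome 16, 85898803 to 85922609, plus strand) showed no rise beside SPI1. Its CPM were 136 and 137 in vehicle, 132 and 148 with LAA, 105 and 111 with ATRA, and 142 and 106 with LAA+ATRA. Both ATRA libraries lay below both vehicle libraries, whereas the 2 LAA+ATRA replicates differed from each other by more than ATRA differed from vehicle. The difference of ATRA from vehicle was log2 -0.34 ± 0.13 with an adjusted p of 0.0503. It was called in 6 alternatives, with adjusted p between 0.0136 and 0.047. They were DESeq2, RLE size factors, no low-count filter, the 4 libraries compared alone, and leaving out either LAA+ATRA replicate. The other alternatives did not call it, among them gene length offsets (adjusted p = 0.0686) and the replicate block. Nor did the FPKM fits, or any fit that left out a library of vehicle or of ATRA alone. Without LAA+ATRA replicate 1, IRF8 was also lower in LAA+ATRA against vehicle (log2 -0.36, adjusted p = 0.0344) and against LAA (log2 -0.39, adjusted p = 0.0309).

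Within a library, IRF8 stood at 0.359 to 0.478 of the SPI1 level in FPKM in the 4 libraries without ATRA. In the 4 with ATRA the ratio was 0.142 to 0.172. The ranges did not overlap. GFI1 relative to SPI1 stood at 0.444 to 0.587 without ATRA and 0.253 to 0.35 with it. Relative to IRF8, GFI1 stood higher with ATRA, at 1.54 to 2.1 against 1.14 to 1.24 without it. These ratios were picked after the values were seen and carry no test. Among 13 tested partners and targets of IRF8, which include KLF4, 6 rose and 3 fell with ATRA. Over all genes, 21.9% were called higher and 21% lower. IRF1, an interferon-response factor, rose 9.07-fold from 15.2 ± 1.7 CPM (SD, n = 2). BATF3, a dendritic-cell factor that works with IRF8, fell by 1.49 on the log2 scale from 13.8 ± 0.21 CPM. BATF3 was also 0.85 higher in LAA+ATRA than in ATRA on that scale (adjusted p = 0.0388), and CIITA, the master regulator of MHC class II genes, fell by 2.08 with ATRA.

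GFI1 (ENSG00000162676.13; chromosome 1, 92474762 to 92486876, minus strand) is the granulocytic repressor of the group. Its CPM were 215 and 198 in vehicle, 191 and 204 with LAA, 247 and 235 with ATRA and 240 and 230 with LAA+ATRA. Every library with ATRA stood above every library without it, by a narrow margin. The log2 difference of ATRA from vehicle was 0.22 ± 0.096 (adjusted p = 0.0827), and that of LAA+ATRA from LAA was 0.25 ± 0.096 (adjusted p = 0.0573). Neither was called by edgeR on counts. The second was called by DESeq2 (adjusted p = 0.0293) and in edgeR without either ATRA library (adjusted p = 0.0313 and 0.0429). Both were called once gene length entered the fit, at 0.37 (adjusted p = 0.0232) and 0.40 (adjusted p = 0.0187). The 10 tested genes on a list of genes repressed by GFI1 include the members SPI1, EGR1 and EGR2. With ATRA 6 of the 10 rose and 2 fell, where 21.9% of all genes were called higher and 21% lower. CSF1R, the M-CSF receptor of the monocyte lineage, rose 4.97-fold, and CDKN1A, the p21 cell-cycle inhibitor, rose 6.56-fold. E2F5, a cell-cycle factor, fell by 2.15 on the log2 scale, so the list did not move in 1 direction.

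EGR1 (ENSG00000120738.8; chromosome 5, 138465490 to 138469315, plus strand) and EGR2 (ENSG00000122877.18; chromosome 10, 62811996 to 62919900, minus strand) are zinc-finger factors of the immediate early class, which serum response factor controls through CArG boxes (CC, A or T bases, then GG). The promoter set used, from RefSeq on GRCh38.p14, covers 8 of the 9 factors, with 14 starts among them. It lacks SPI1, whose promoter was not examined. Both EGR genes hold a CArG box within 250 bases before a start, as 1.16% of the 35116 promoter windows of that length do on either strand. The windows of EGR1 (chr5:138465229-138465478, plus strand) and of the third EGR2 start (chr10:62816367-62816616, minus strand) are shown because no other member's window has this motif. Capitals mark the CArG boxes, which begin 105 and 83 bases before the EGR1 start and 71 bases before that EGR2 start. Neither window overlaps an annotated exon.
EGR1: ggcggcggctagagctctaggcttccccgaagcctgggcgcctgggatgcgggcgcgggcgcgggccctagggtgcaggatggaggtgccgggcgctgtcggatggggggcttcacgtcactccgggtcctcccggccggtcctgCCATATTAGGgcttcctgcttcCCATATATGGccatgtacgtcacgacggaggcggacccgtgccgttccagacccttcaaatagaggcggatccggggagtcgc
EGR2: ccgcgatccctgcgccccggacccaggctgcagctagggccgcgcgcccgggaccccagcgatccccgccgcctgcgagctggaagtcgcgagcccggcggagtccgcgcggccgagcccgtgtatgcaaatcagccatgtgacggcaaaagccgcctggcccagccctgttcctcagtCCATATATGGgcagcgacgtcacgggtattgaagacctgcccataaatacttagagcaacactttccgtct
A match of letters is a description and not a measured binding site.

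EGR1 showed the largest fold change of the 9 factors with ATRA. Its CPM were 1.11 and 0.63 in vehicle, 1.29 and 1.63 with LAA, 6.36 and 6.08 with ATRA, and 3.86 and 5.88 with LAA+ATRA. All libraries with ATRA stood above all without it. The vehicle values rest on 23 and 13 counts. ATRA raised EGR1 7.11-fold (log2 2.83 ± 0.35, adjusted p = 4.84e-05), and LAA+ATRA was 3.34-fold above LAA alone (log2 1.74 ± 0.34, adjusted p = 0.00161). The interaction, which is the difference between these 2 steps, was log2 -1.09 ± 0.49 with an unadjusted p of 0.0461 and an adjusted p of 0.986, so the steps were not shown to differ.

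EGR2 was read from 3 to 30 counts per library. It had 11 and 10 counts in vehicle, 6 and 8 with LAA, 30 and 21 with ATRA, and 3 and 9 with LAA+ATRA. The CPM were 1.66 and 0.906 with ATRA, above the 0.168 to 0.529 of the other 6 libraries. The log2 difference of ATRA from vehicle was 1.32 ± 0.65 (adjusted p = 0.126), and that of LAA+ATRA from ATRA was -2.0 ± 0.7 (adjusted p = 0.153). Neither was called. The low-count cutoff of 0.514 CPM was reached by both ATRA libraries, by 1 vehicle library and by none of the other 4, so EGR2 entered the test through the group where it is highest.

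Other immediate early genes moved in part. Of 22 tested genes on a list of EGR corepressors and immediate early genes, 8 rose and 2 fell with ATRA. The median log2 fold change of the 22 was 0.14, where 21.9% of all genes were called higher and 21% lower. The 8 include EGR3, whose mean passed the low-count cutoff only in the ATRA group. The rise of EGR3 is therefore not read as a difference. DUSP6, a phosphatase of ERK, rose 4.14-fold from 28.6 ± 0.22 CPM (SD, n = 2). JUNB, an AP-1 subunit, and ZFP36, an RNA-binding protein that shortens the life of cytokine messages, rose 1.77-fold and 1.81-fold. JUN fell by 0.80 on the log2 scale. NAB2, a corepressor of EGR proteins, had 14.6 ± 0.42 CPM in vehicle and 11.6 ± 0.13 CPM with ATRA and was not called (adjusted p = 0.0994).

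KLF4 (ENSG00000136826.15; chromosome 9, 107484852 to 107490482, minus strand) was the 1 factor of the 9 called lower with ATRA. Its CPM were 5.39 and 4.6 in vehicle, 5.11 and 4.41 with LAA, 3.04 and 2.03 with ATRA, and 2.63 and 3.87 with LAA+ATRA. No library with ATRA reached the lowest library without it. KLF4 fell by 0.99 on the log2 scale with ATRA (SE 0.3, adjusted p = 0.0172). LAA+ATRA differed from LAA by -0.55 ± 0.29 (adjusted p = 0.168) and from vehicle by -0.62 ± 0.29 (adjusted p = 0.105), neither called. The call for ATRA alone ended without vehicle replicate 1 (log2 -0.87), without ATRA replicate 2 (log2 -0.71) and with gene length offsets (log2 -0.70, adjusted p = 0.138). It also ended in every limma fit on the FPKM scales, at log2 -0.68 to -0.43 (adjusted p from 0.144 to 0.284).

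The window before the RefSeq start of KLF4 (chr9:107489770-107490019, minus strand) is shown for the member that fell. It holds no CArG box. It has 4 GC boxes, the GGGCGG letters read on either strand and bound by the SP and KLF families, which are in capitals. They begin 190, 164, 97 and 76 bases before the start, and 42.6% of all promoter windows hold at least 1.
KLF4: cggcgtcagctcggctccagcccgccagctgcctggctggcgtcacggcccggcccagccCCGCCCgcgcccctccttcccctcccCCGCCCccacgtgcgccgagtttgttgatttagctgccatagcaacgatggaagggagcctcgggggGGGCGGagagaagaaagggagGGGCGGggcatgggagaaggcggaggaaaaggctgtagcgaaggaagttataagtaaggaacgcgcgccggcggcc
The EGR site GCGTGGGCG, the PU.1 box GAGGAAGT, the AP-1 site TGACTCA, the CRE site TGACGTCA and direct repeats of the retinoid receptor hexamer AGGTCA with 2 or 5 bases between had no match in the 14 member windows. They are found on either strand in 0.72%, 2.17%, 4.2%, 1.65%, 0.00285% and 0.00285% of all windows. The RUNX site TGTGGT, in 11% of all windows, was matched before the first listed IRF8 start and the second GFI1 start, at 134 and 47 bases. Such letters in a short window say nothing of whether a factor acts on the gene.

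KLF2 (ENSG00000127528.6; chromosome 19, 16324817 to 16327874, plus strand) was close to the limit of detection. Its counts ranged from 12 to 26 per library. The CPM were 1.25 and 0.582 in vehicle, 0.793 and 0.735 with LAA, 0.663 and 1.08 with ATRA, and 0.894 and 0.653 with LAA+ATRA. Every treated group overlapped vehicle, whose 2 libraries lay farthest apart. The log2 difference of ATRA from vehicle was -0.06 with a 95% interval from -1.35 to 1.23, so a change of up to about the size seen in SPI1 was not detectable at this depth. Its sign turned to 0.62 with gene length offsets, without a call. Of 6 tested targets of KLF2 and KLF4, 4 rose and 2 fell with ATRA. Over all genes, 21.9% were called higher and 21% lower. THBD, the thrombomodulin gene, rose 55.5-fold from 13.9 ± 2.1 CPM to 773 ± 95 CPM (SD, n = 2). NOS3, the endothelial nitric oxide synthase, fell by 0.86 on the log2 scale.

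RUNX1 (ENSG00000159216.19) spans chromosome 21 from 34787801 to 36004667 on the minus strand, with 27 separate exon blocks in GENCODE 29. Its CPM were 89.5 and 88.3 in vehicle, 81.3 and 76.9 with LAA, 141 and 134 with ATRA, and 110 and 132 with LAA+ATRA. All libraries with ATRA stood above all without it, and both LAA libraries stood below both vehicle libraries. The count rose 1.54-fold with ATRA (log2 0.63 ± 0.11, adjusted p = 0.00056) and 1.53-fold in LAA+ATRA against LAA (log2 0.61 ± 0.11, adjusted p = 0.000872).

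On the FPKM scale the RUNX1 groups were closer. The FPKM levels were 22.9 and 19.5 in vehicle, 16.1 and 15.4 with LAA, 28.5 and 23.9 with ATRA, and 20.5 and 23.6 with LAA+ATRA. The LAA+ATRA libraries here overlapped vehicle. The gene length behind the authors' FPKM, recovered from counts and FPKM and given as a percentage of its mean over the libraries, was 79.6% and 92% in vehicle, 101% and 99.6% with LAA, 100% and 114% with ATRA, and 106% and 113% with LAA+ATRA. With that length as an offset, the log2 difference was 0.30 for ATRA against vehicle (adjusted p = 0.0904) and 0.05 for LAA+ATRA against vehicle (adjusted p = 0.769), both without a call. LAA+ATRA against LAA kept its call at 0.48 (adjusted p = 0.0178). Which transcripts of RUNX1 were used was not tested.

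**Figure D3:**
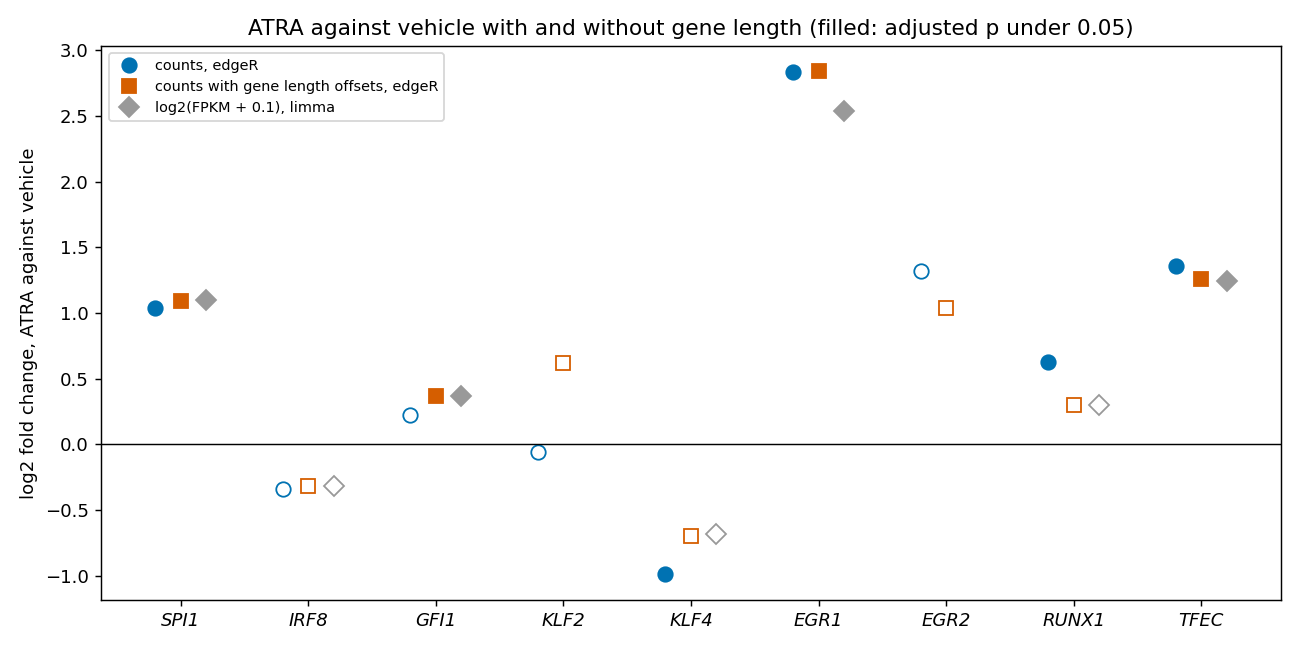
Log2 fold change of each factor for ATRA against vehicle from counts (circles), counts with gene length offsets (squares) and log2(FPKM + 0.1) (diamonds), filled where the adjusted p is under 0.05. RUNX1 goes from 0.63 to 0.30 and GFI1 from 0.22 to 0.37 with gene length. KLF2 and EGR2 have no diamond because they did not reach a mean of 1 FPKM in any group.

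Of 9 tested partners and targets of RUNX1, with SPI1 among them, 5 rose and none fell with ATRA. Over all genes, 21.9% were called higher and 21% lower. ELANE, the neutrophil elastase gene, rose 2.18-fold, and ITGAL, the CD11a integrin chain, rose 2.88-fold. RUNX2, a paralog that shares the RUNX DNA motif, rose 2.2-fold from 24 ± 1.6 CPM (SD, n = 2).

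TFEC (ENSG00000105967.16; chromosome 7, 115935148 to 116159896, minus strand) had the second largest called rise of the 9 with ATRA. Its CPM were 18 and 16.7 in vehicle, 13.5 and 11.4 with LAA, 39.3 and 49.6 with ATRA and 33 and 39 with LAA+ATRA. The lowest library with ATRA was well above the highest without it. ATRA raised TFEC 2.57-fold (log2 1.36 ± 0.15, adjusted p = 1.48e-05), and LAA+ATRA was 2.89-fold above LAA (adjusted p = 9.86e-06). LAA lay below its comparator in both settings, at log2 -0.48 ± 0.15 without ATRA (adjusted p = 0.132) and -0.31 ± 0.14 with it (adjusted p = 0.271), and neither was called.

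Close relatives of TFEC rose beside it. TFEB and TFE3, which drive lysosomal genes, rose 2.39-fold and 1.96-fold with ATRA, from 33.7 ± 2.4 and 47.8 ± 3.7 CPM (SD, n = 2). MITF, the other member of the family, had 3.84 ± 0.055 CPM in vehicle and 4.5 ± 0.58 CPM with ATRA and was not called (adjusted p = 0.528). Of 12 tested targets of the MiT/TFE family, 7 rose and none fell, with a median log2 fold change of 0.46. Over all genes, 21.9% were called higher and 21% lower with ATRA. OSTM1, a subunit of a lysosomal chloride exchanger, rose 3.07-fold. MCOLN1, a lysosomal calcium channel, rose 2.08-fold, and SQSTM1, an autophagy receptor, rose 1.74-fold. Over all the members' paralogs and family relatives, 8 of 19 tested rose and none fell, with a median of 0.37. EGR3 is among the 8, and its mean passed the low-count cutoff only in the ATRA group, so its rise is not read as a difference. ELF4, an ETS factor, rose 2.4-fold. In LAA+ATRA against ATRA 1 of the 19, the ETS factor ELF1, was lower by log2 -0.59 (adjusted p = 0.0307). That comparison called 1.01% of all genes.

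Beside the 9, the other fate factors split. Of 17 tested, 6 rose and 5 fell with ATRA, with a median log2 fold change of 0.03. Over all genes, 21.9% were called higher and 21% lower. ID2, an inhibitor of helix-loop-helix factors, rose 2.01-fold from 35.7 ± 1.5 CPM (SD, n = 2). MYC, which sustains proliferation, fell by 2.37 on the log2 scale from 375 ± 20 CPM.

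Adding LAA to ATRA asks what ascorbate did in the presence of the retinoid. Against vehicle, LAA+ATRA raised SPI1 2.54-fold, EGR1 5.58-fold, RUNX1 1.36-fold and TFEC 2.08-fold, so 4 of the 9 were called, all higher, where 44.7% of all genes were called, 23.1% higher. The RUNX1 call ended without vehicle replicate 2 (adjusted p = 0.0507). Against ATRA alone none of the 9 was called, where 1.01% of all genes were called. In that edgeR fit 2 of the 9 had an unadjusted p under 0.05, a level that 18.6% of all genes reached. SPI1 was higher at an unadjusted p of 0.0137 (adjusted p = 0.152). The other was EGR2, which entered the test through the ATRA group and whose p is therefore not read as a difference. DESeq2 called none of the 9 either. The 95% interval of the difference was 0.07 to 0.53 for SPI1, -0.24 to 0.17 for GFI1, -0.42 to 0.05 for RUNX1 and -1.01 to 0.31 for EGR1 on the log2 scale.

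LAA against vehicle gave 0 calls among the 9 in the edgeR fit and 0 in DESeq2. TFEC alone was lower at an unadjusted p of 0.00908 (adjusted p = 0.132). Of all genes, 18.9% had an unadjusted p under 0.05. The interval of the LAA difference was -0.27 to 0.14 for GFI1, -0.24 to 0.32 for IRF8, -0.69 to 0.55 for KLF4 and -0.10 to 1.58 for EGR1, so only small changes were bounded for the abundant genes. The interaction of LAA and ATRA called none of the 9 in edgeR or DESeq2, where 0.00667% of all genes were called, and EGR1 alone had an unadjusted p under 0.05. The comparisons share libraries, so their values are given side by side and are not independent of each other.

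**Figure D4:**
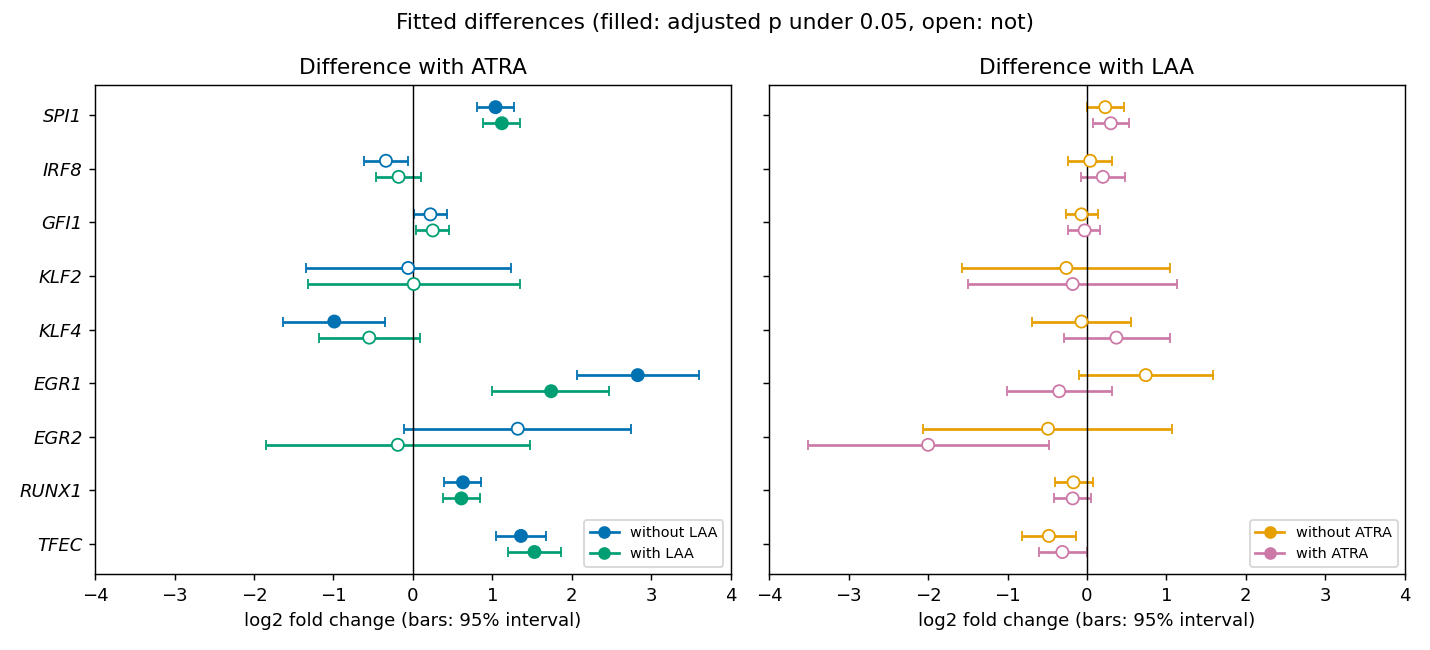
Fitted log2 fold changes with 95% intervals for the difference with ATRA (left, without and with LAA) and with LAA (right, without and with ATRA), filled where the adjusted p is under 0.05. SPI1, EGR1, RUNX1 and TFEC are filled in both ATRA comparisons, KLF4 in the comparison without LAA, and no point is filled on the right.

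Averaging each compound's difference over the other compound, a contrast chosen after seeing the data, draws on all 8 libraries. For ATRA, 7 of the 9 factors were called, 5 higher and 2 lower, where 53.7% of all genes were called, 27.1% higher and 26.6% lower. GFI1 joined SPI1, EGR1, RUNX1 and TFEC at log2 0.24 ± 0.068 (adjusted p = 0.0105). IRF8 fell by 0.26 (SE 0.091, adjusted p = 0.0297) beside KLF4, which fell by 0.77 (adjusted p = 0.00764). The IRF8 call ended when 1 library was left out, with an adjusted p of 0.0791 or 0.0815 without a vehicle library, 0.127 without LAA replicate 2, 0.0749 without ATRA replicate 1 and 0.0965 without LAA+ATRA replicate 2. The GFI1 call ended without vehicle replicate 2 (adjusted p = 0.0744) or LAA replicate 1 (adjusted p = 0.0627), and the KLF4 call with gene length offsets (adjusted p = 0.125). On the FPKM scales the KLF4 call ended in all 3 fits (adjusted p from 0.134 to 0.247) and the IRF8 call in the unfiltered one (adjusted p = 0.0882).

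For LAA averaged over ATRA, 2 of the 9 were called, 1 in each direction, where 12.5% of all genes were called, 6.49% higher and 5.98% lower. SPI1 was higher by log2 0.26 (adjusted p = 0.0393) and TFEC lower, at log2 -0.39 (adjusted p = 0.0322). In SPI1 both LAA libraries stood above both without LAA in each ATRA setting, and in TFEC both stood below. Leaving out any 1 of 6 of the 8 libraries ended both calls, with adjusted p from 0.0668 to 0.19 for SPI1 and from 0.0661 to 0.141 for TFEC. The libraries whose removal kept both calls were ATRA replicate 1 and LAA+ATRA replicate 2. Both calls also ended in all 3 fits on the FPKM scales, with adjusted p from 0.0538 to 0.0821 for SPI1 and from 0.0549 to 0.103 for TFEC. With the replicate number as a block the SPI1 call ended (adjusted p = 0.0618).

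By the shape of their levels over the 8 libraries, the closest gene to SPI1 was UBALD2, with a root mean square difference of 0.05 in centred log2 CPM, against a median of 0.60 over all genes compared. The gene closest to TFEC was SH3BGRL (0.12), followed by CTSS, the lysosomal protease cathepsin S (0.13). The 3 genes closest to EGR1 included DRAM1 (0.30), whose CPM went from 22.4 in vehicle to 110 with ATRA and 90.4 with LAA+ATRA, and NINJ2 (0.31). RUNX1 was closest to FNDC3A (0.05), GFI1 to RNF14 (0.04), IRF8 to MKS1 (0.06) and KLF4 to POU4F1 (0.11). For KLF2 and EGR2 the closest genes, MOSMO and CRYBG3, were at 0.18 and 0.42.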

How the data were processed

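Polyadenylated RNA of U-937 cells was sequenced in 8 libraries. Salmon 1.8.0, DESeq2 1.36.0, GRCh38 and hg38 are named, per the submitters' processing notes. Not given in the sources used here were annotation release, strand setting and gene summing. Estimated counts, as deposited, are unscaled values for each gene, and 16.5% have decimals. The deposited FPKM were made by the authors with a gene length that differs between libraries.

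Counts were rounded, filtered with filterByExpr (14995 genes left, all 9 members among them) and scaled by TMM. They were fitted in edgeR 4.0.16 (R 4.3.3) with 4 group means over 8 libraries, by quasi-likelihood F tests, two-sided, Benjamini-Hochberg adjusted over all genes, called under 0.05. The scripts were tested on simulated data. CPM are TMM-scaled. Alternatives were DESeq2 1.42.0, RLE factors, no filter, a replicate block, gene length offsets, the compared libraries alone, limma 3.58.1 on log2(FPKM + 1) and log2(FPKM + 0.1) (where 1 group or more averaged 1 FPKM), and each library left out. Positions are from GENCODE 29 on GRCh38, which may not be the authors' annotation. Promoters are from RefSeq.

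The members, lists and named-gene rule were chosen with earlier results of these data known. The rule names all members, up to 4 called genes per list by adjusted p for ATRA against vehicle, and the 3 genes most like each member with at least 5 CPM. LYZ, FCN1, VCAN, MMP9, BTK, ITGB2, TLR4, CIITA, JUN, NAB2 and ELF1 were added after their values were seen.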

Additional observations from a re-analysis of the deposited data

How the results depend on the processing

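With 2 libraries per group, KLF2 and EGR2 (26 counts or fewer and 30 or fewer per library) could show only large changes. For ATRA against vehicle the count of called members went from 5 to 3 with log2(FPKM + 1) and no filter. For LAA against vehicle it went from 0 to 1 without the low-count filter (TFEC) and to 2 when only the libraries compared were fitted (SPI1 and TFEC). The cause was not tested. Leaving out each library in turn gave 4 to 6 calls for ATRA against vehicle, 3 to 5 for LAA+ATRA against vehicle, 4 to 5 for LAA+ATRA against LAA and 0 for the other comparisons. Of the 883 alternative values of the members' fold changes in the 6 comparisons, 844 kept their side of the threshold, 23 gained a call and 16 lost one. The sign changed in 42 of the 844, none of them called, and in no called value. In the 2 averaged contrasts 31 of 280 lost a call, 1 gained one, and the sign changed in 12 that were not called.

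Over all genes, the calls for LAA against vehicle went from 4 to 703 with DESeq2, 828 without a filter and 2187 with only the libraries compared. Those for LAA+ATRA against ATRA went from 152 to 696 with DESeq2, 903 without a filter and 15 with gene length offsets. With the replicate block the member counts were 5 for ATRA against vehicle, 4 for LAA+ATRA against vehicle and against LAA, and 0 for the others, so it changed no call in these 6 comparisons. Deviations of same-numbered libraries correlated across genes between -0.0728 and 0.0771, so the numbers were not taken as pairs. Over all genes the block left 30 calls for LAA+ATRA against ATRA.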
